A study of Mus musculus with 20 samples.

Results

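DNA methylation at autosomal promoters was described in 10 single control blastocysts of the mouse, taken alone and without comparison with mutant embryos. The members were all 51443 promoter windows on chromosomes 1 to 19, of 54034 windows in the deposited table, read in the 10 of 20 embryos whose titles name them control blastocysts (replicates 1 to 10) and whose labelled genotype is Control. A window is a stretch of 3500 bp on mouse build GRCm39 named by chromosome, start and end, and its level is the percent of methylation that the authors gave for an embryo. The other 10 embryos of the study came from the Padi6-mutant group and were not used here. The labels name neither strain, mother, litter, sex nor hours of development, so the spread given below is between embryos, some of which may share a mother. Each library came from a whole blastocyst, so a level averages the inner cell mass and the trophectoderm. The values hold no expression, so the labelled stage could not be checked against marker genes. The table does not tie a window to a gene, and the gene tables at hand are on another build (GRCm38.p6), so windows are given by position and no gene name, exon, UTR or sequence is attached to them.

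Methylation of the mouse genome is largely erased after fertilization, partly by active conversion and partly by dilution at each division, and the blastocyst is known as its low point. Promoters rich in CpG are mostly free of methylation at any stage, whereas CpG-poor promoters take part in the erasure and in the later gain at implantation. Imprinted loci are the known exception. There methylation laid down in the egg or the sperm is kept through the erasure on the copy from a single parent, by DNMT1, the maintenance methyltransferase, with UHRF1, which brings it to newly copied DNA.

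Coverage split the embryos into a dense and a sparse set. Replicates 1, 2, 3, 4, 5 and 10 had a value in 35782 to 45664 of the 51443 windows (69.6% to 88.8%), and replicates 6, 7, 8 and 9 in 4868 to 16483 (9.46% to 32.0%). Read depth is unknown, so no counting interval can be given for a level. Levels of sparse embryos sat on coarse steps: 58.4% to 73.0% of their values were exactly 0 and 4.95% to 8.99% exactly 100, against 32.5% to 50.3% and 1.08% to 2.09% in dense embryos. In all, 331 windows had no value in any control embryo and 20700 (40.2%) had one in at least 7 of the 10, the set used below unless another is named.

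The control promoter landscape was low, with a long tail and hardly any promoter near full methylation. The mean level over embryos was 13.3% ± 2.62 (SD, n = 10), with each embryo taken as its average deviation from the window means. Replicate 10 was lowest at 10.1% and replicate 7 highest at 19.5%. The 6 dense embryos lay between 10.1% and 13.5% (mean 12.01% ± 1.38, SD, n = 6) and the 4 sparse ones between 12.6% and 19.5%, so the sets overlapped. Averaged over embryos, the median window stood at 8.16%, the lower quartile was 3.17% and the 90th percentile 32.7%. There were 11695 windows (56.5%) under 10%, 418 (2.02%) at 50% or more and 1 at 80% or more, and the highest window mean was 80.6%.

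Within an embryo the levels fell into a large unmethylated class and a broad intermediate one. The shares given here are over all windows with a value in the embryo, not only the 20700. In dense embryos 50.6% ± 4.88 (SD, n = 6) of windows were under 5%, 20.9% ± 3.14 at 5% to 20%, 16.5% ± 2.36 at 20% to 50%, 10.1% ± 1.60 at 50% to 80%, 0.45% ± 0.11 at 80% to under 100% and 1.42% ± 0.37 at exactly 100. Values of exactly 50 made up 6.88% ± 1.25 of the windows of a dense embryo. Replicate 2, the most widely covered embryo, had the fewest zeros (32.5%) and a median of 14.3% among its values above 0. In the sparse embryos that median was 40% in replicate 6 and 50% in each of replicates 7, 8 and 9. Sparse embryos had 7.08% ± 0.91 (SD, n = 4) of their values at 5% to 20% and 6.92% ± 1.20 at 20% to 50%, both below the lowest dense embryo, and 11.5% ± 2.82 at 50% to 80%, where the sets overlapped.

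**Figure D1:**
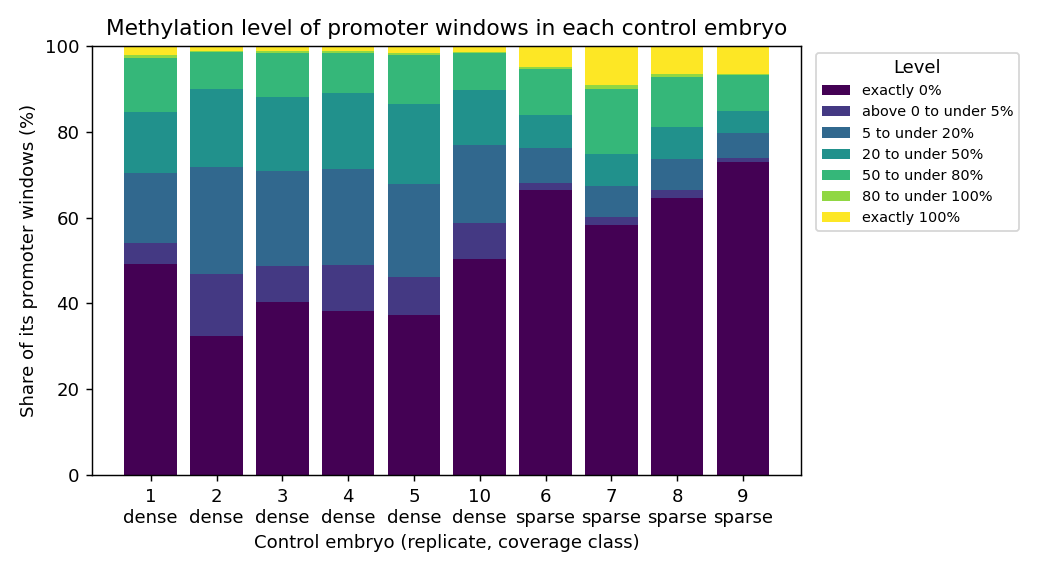
Share of promoter windows (y axis, percent of the windows with a value) in 7 classes of methylation level, for each control embryo (x axis, replicate and coverage class). The lowest class, exactly 0, takes 32.5% to 50.3% in the 6 dense embryos and 58.4% to 73.0% in the 4 sparse ones.

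Windows that few embryos covered were more methylated than windows that many covered. In dense embryos the 12383 windows with a value in 1 to 4 embryos stood at 20.7% ± 1.86 (SD, n = 6) and the 9561 windows with a value in 8 to 10 embryos at 11.1% ± 1.42. The difference was 9.57 points, ran from 7.68 to 11.4, and was positive in 6 of 6 embryos (two-sided exact sign-flip permutation p = 0.0312, the smallest that 6 embryos allow). The mean over dense embryos fell at each step from 22.5% at windows seen in 1 embryo to 10.7% at those seen in 9, with 10.8% at those seen in all 10. The 20700 windows are therefore the less methylated part of the promoters. How many CpGs a window holds is not in the table, and its part in this difference was not tested.

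Promoters methylated in every embryo were few. Of the 20700 windows, 10 (0.0483%) were at 50% or more in every embryo with a value, and 395 (1.91%) at 20% or more. The 10 windows did not overlap and lay on 9 chromosomes, 2 of them on chromosome 12. None had a value in all 10 embryos, and their dense means lay between 61.2% and 80%. Values of exactly 50 made up 6.88% of the windows of a dense embryo on average, so the limit lies on a common level. Only the windows on chromosome 8 and on chromosome 12 from 109543667 to 109547166 had a lowest value above it, at 53.2% and 58.3%. In the other windows the lowest value was exactly 50%, and at a limit of 60% 0 windows were left. Read depth is unknown, so a level of exactly 50% may rest on few reads.

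The window on chromosome 8 from 21434227 to 21437726 had the most values among them, 9, and a mean of 68.1% ± 15.5 (SD, n = 9). Its dense embryos read 58.3%, 55.7%, 82.0%, 67.3%, 53.2% and 60.0% (replicates 1 to 5 and 10), and sparse replicates 6, 7 and 8 read 77.8%, 100% and 58.8%. All embryos were thus above 50%, with replicates 7 and 3 on top. The window on chromosome 12 from 109543667 to 109547166 was the most even in dense embryos, at 71.4%, 66.7%, 58.3%, 68.4%, 61.1% and 66.7%, a mean of 65.4% ± 4.84 (SD, n = 6), and its single sparse value was 100% in replicate 6. The window on chromosome 17 from 46543258 to 46546757 had the highest mean, 79.1% ± 18.3 (SD, n = 7). Dense replicates 1 to 5 read 50.0%, 62.5%, 81.5%, 80% and 80% there, and sparse replicates 7 and 9 both read 100%.

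A further pair lay on chromosomes 10 and 16. The window on chromosome 10 from 128843660 to 128847159 read 100%, 80%, 50.0%, 100%, 50.0% and 100% in the dense embryos and 66.7% in replicate 7. The window on chromosome 16 from 3336636 to 3340135 read 50.0%, 67.6%, 100%, 71.4%, 83.3% and 66.7%, and 100% in replicate 7. In both, the dense embryos alone spanned the range from 50% to 100%. The value was 100% in replicates 1, 4 and 10 at the first window and in replicates 3 and 7 at the second. The remaining 5, on chromosomes 1, 5, 6, 12 and 13, had means of 67.7% to 75.5%, each with a lowest value of 50% and a highest of 100%.

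Among the 22758 windows with a value in all 6 dense embryos, 25 (0.11%) were at 50% or more in each, 680 (2.99%) at 20% or more, 2238 (9.83%) at 5% or less and 313 (1.38%) at exactly 0. The 25 lay on 13 chromosomes, 7 of them on chromosome 12 and 3 on chromosome 8. Of the 7 on chromosome 12, 4 lay between 109 and 110 Mb, and 3 of these overlap each other. The SD of the 25 windows over the 6 embryos ran from 4.84 to 24.5 points. In most of the 25 the lowest dense value was exactly 50%, so this set too rests on where the limit lies.

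These sets were read in embryos that had not chosen them. The 25 windows had few values in sparse embryos, 6 each in replicates 6, 7 and 8 and 0 in replicate 9. They averaged 69.9%, 77.8% and 43.1% there. The 680 windows at 20% or more stood at 43.9%, 61.8%, 51.8% and 38.0% in replicates 6 to 9, over 84 to 298 values, where the mean of all windows read in the same embryos was 14.8% ± 3.37 (SD, n = 4). All 4 sparse embryos were above that mean on these windows, although 27.2% of the values were still 5% or less. With each dense embryo left out in turn, the 36 to 47 windows at 50% or more in the other 5 stood at 49.9% ± 2.35 (SD, n = 6) in the one left out. There 63.3% of them were again at 50% or more, against 7.996% of all windows, and 10.2% were at 0.

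Promoters unmethylated in every embryo were more frequent. Of the 20700 windows, 1646 (7.95%) were at 5% or less in every embryo with a value and 235 (1.14%) at exactly 0. One window, on chromosome 2 from 91805710 to 91809209, was at 0% in all 10 embryos. Windows at 0% in 9 of 9 embryos with a value were found at 57017310 to 57020809 on chromosome 1, on chromosome 7 from 43153375 to 43156874, on chromosome 9 from 30938940 to 30942439 and on chromosome 11 from 32173505 to 32177004. Read depth is unknown, so a level of 0% may rest on few reads.

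The unmethylated state carried over as well. In the sparse embryos, the 2238 windows at 5% or less in all dense embryos stood at 4.51% ± 0.98 (SD, n = 4), and 82.9% of the values were again at 5% or less, against 68.1% of all windows. In a dense embryo left out, the windows at 5% or less in the other 5 stood at 3.92% ± 0.46 (SD, n = 6), and 78.0% were again at 5% or less, against 52.0% of all windows. Values of 50% or more were found at 1.19% of them. Windows at exactly 0 in the other 5 dense embryos carried over less closely to the one left out. They stood at 5.45% ± 0.61 (SD, n = 6), with 72.3% at 5% or less and 2.65% at 50% or more. In sparse embryos the 313 windows at exactly 0 in all dense ones stood at 5.36% ± 2.27 (SD, n = 4), with 86.3% at 5% or less.

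A window's class in the other embryos ordered, but did not fix, its level in the one left out. Windows were placed by their mean over the other 9 embryos, and a value in at least 3 of these was enough. More windows than the 20700 thus entered. Windows under 5% in the other 9 embryos stood at 6.05% ± 1.04 (SD, n = 10), those at 5% to 20% at 12.8% ± 2.54, those at 20% to 50% at 28.4% ± 5.67 and those at 50% to 80% at 43.1% ± 7.16. The class means rose in that order, and the lowest embryo of the 50% to 80% class (34.7%) lay above the highest of the 5% to 20% class (19.2%). Windows at 80% or more in the other embryos came to only 46.5% ± 15.2, over 1 to 41 windows an embryo, and did not stand apart from the class below. With at least 5 of the other embryos required, that class stood at 55.8% ± 14.1 (SD, n = 8) and the class below at 44.7% ± 7.23 (SD, n = 10). In dense embryos alone both upper classes stood at 39.5% ± 2.42 and 39.4% ± 5.23 (SD, n = 6). The upper classes were picked for high values in the embryos that placed them (57.7% and 85.7% on average), so a fall in the next embryo is built into this reading. At 50% to 80%, 49.1% of held-out values were again at 50% or more and 23.1% were exactly 0.

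**Figure D2:**
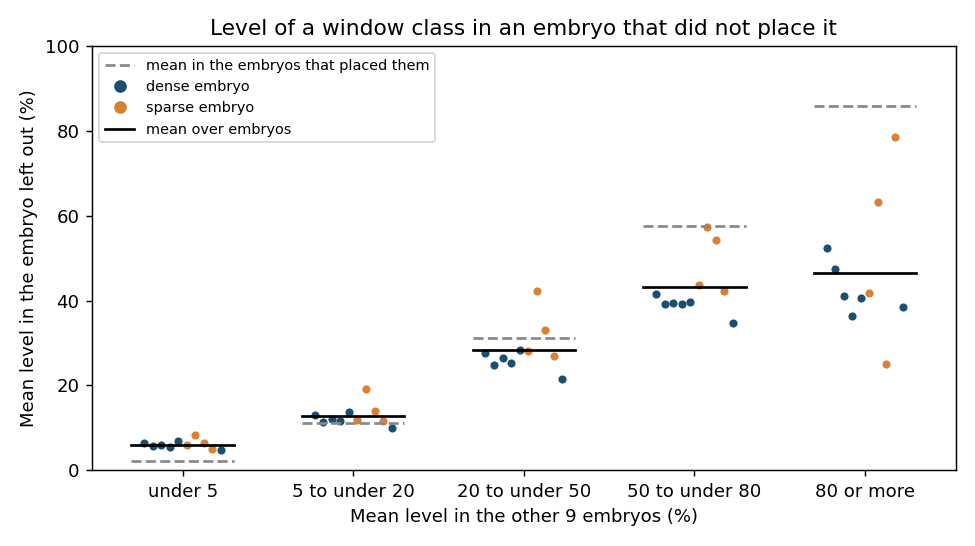
Mean methylation of promoter windows in an embryo left out (y axis, percent) by their mean level in the other 9 control embryos (x axis, percent), 1 point for each embryo. Black lines are means over embryos and dashed lines the mean in the embryos that placed the windows; the held-out means are 6.05%, 12.8%, 28.4%, 43.1% and 46.5%.

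Agreement between 2 embryos across promoters was modest. Over the 45 pairs the Pearson correlation across shared windows averaged 0.29 (0.19 to 0.38), and over the 15 pairs of dense embryos 0.33 (0.27 to 0.38). Windows are not independent replicates, so these are descriptions with no p. Replicates 2 and 4 were the closest pair, at 0.38 over 40297 shared windows, and replicates 6 and 9 the least alike, at 0.19 over 2131. Dense pairs differed by 14.9 points a window on average (13.4 to 16.6) and were within 10 points at 56.0% of windows. Of windows at 50% or more in one dense embryo, 28.3% (25.1% to 30.5%) were at 50% or more in the other, where 10.6% of all shared windows were. For windows at 0% the corresponding shares were 48.1% and 40.2%. The part of read depth in these differences was not tested, since the table does not give it.

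Some windows with many values differed widely between embryos. The 5 with the largest SD among windows with at least 9 values had SDs of 42.8 to 44.1 points. On chromosome 7 from 26865728 to 26869227, sparse replicates 6, 7 and 9 read 100% and replicate 8 read 0%, whereas dense embryos lay between 0% and 25%. There the spread was that of the sparse embryos. On chromosome 11 from 43353813 to 43357312, dense replicates 1 to 5 and 10 read 94.4%, 77.8%, 10.0%, 50.0%, 4.35% and 0%. On chromosome 1 from 150498017 to 150501516 dense replicates 3 and 10 read 100% while replicates 1, 2, 4 and 5 lay between 0% and 16.7%. In these windows dense embryos themselves stood at both ends. The remaining pair lay on chromosome 5 from 73369487 to 73372986 and on chromosome 13 from 74111353 to 74114852, with dense ranges of 0% to 100% in each.

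Chromosomes differed by at most a few points. For each embryo the mean level of a chromosome's windows was set against that of the other autosomes, with a two-sided exact sign-flip permutation test over the 10 embryos and Benjamini-Hochberg adjustment over 19 chromosomes. All embryos are read on the same windows, so the test asks whether a difference holds across embryos, not what sets it. Of 19 chromosomes, 4 were higher (21.1%) and 5 lower (26.3%). Chromosome 12 was highest, at 15.5% ± 2.83 against 13.1% elsewhere, a difference of 2.43 points (SD 1.38, n = 10, higher in 9 of 10 embryos, adjusted permutation p = 0.0106). Chromosome 5 followed with 1.77 points (SD 0.81, 10 of 10 embryos, adjusted permutation p = 0.00928). Chromosomes 8 and 17 were higher by 0.88 and 0.80 points, with adjusted permutation p-values of 0.0371 and 0.0278.

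Chromosome 11 was lowest, at 11.5% ± 2.53 against 13.4%, a difference of -1.84 points (SD 0.60, n = 10, lower in 10 of 10 embryos, adjusted permutation p = 0.00928). Chromosome 19 differed by -1.70 points (SD 0.90, lower in 10 of 10, adjusted permutation p = 0.00928), chromosome 3 by -1.39, chromosome 2 by -1.32 and chromosome 18 by -1.17. Of the 18 steps between adjacent chromosomes in this order, the largest was 0.87 points, and 1 passed the same test, from chromosome 8 to chromosome 5 (0.81 points, SD 1.07, n = 10, adjusted permutation p = 0.0352). The order came from these same embryos, so the sign of each mean step was fixed beforehand and its p is only descriptive. Among dense embryos 11 chromosomes had the smallest p that 6 embryos allow (5 higher and 6 lower in all 6), 0 passed after adjustment, and the smallest adjusted permutation p was 0.054. Chromosomes 12, 5, 11 and 19 kept their direction there, at 3.10, 1.14, -2.14 and -1.60 points. Chromosome 17, called with all embryos, differed by only 0.04 points among dense embryos (3 of 6 higher). Chromosomes 10 and 4, near 0 with all embryos, were there higher by 1.15 points (6 of 6) and different by -0.99 points (lower in 6 of 6).

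**Figure D3:**
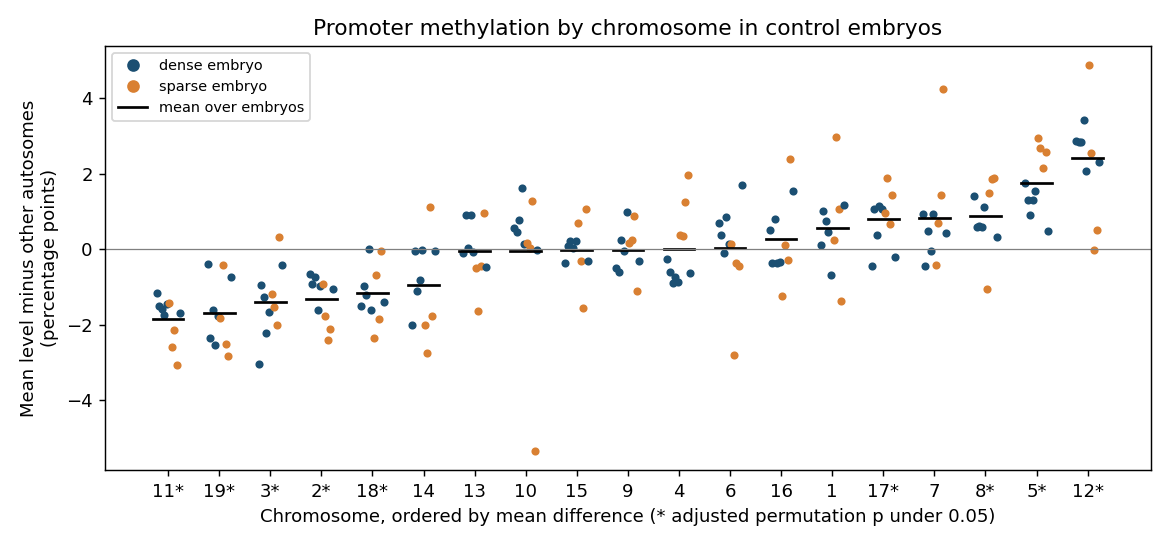
Mean promoter methylation of a chromosome minus that of the other autosomes (y axis, percentage points) for 19 chromosomes ordered by their mean (x axis), 1 point for each of the 10 control embryos with the mean as a line. Chromosomes 11 and 19 lie below 0 in all embryos, chromosome 5 above 0 in all and chromosome 12 in 9 of 10.

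The excess on chromosome 12 lay largely in a single stretch. Windows with a mean of 40% or more formed 2 runs of at least 5 consecutive windows among the autosomes, and both lay on chromosome 12 next to each other. Overlapping windows counted towards the 5. The first held 26 windows from 109555149 to 109691246, with window means from 43.5% to 68.5%. Of these, 5 stay when windows are thinned so that no kept window overlaps another kept one. Dense embryos averaged 56.3%, 58.8%, 50.5%, 46.6%, 62.9% and 54.5% there, and sparse replicates 6, 7 and 8 stood at 68.9%, 75.5% and 45.2%. Replicate 9 read 0% in the 1 window it covered. The second held 17 windows from 109690767 to 109714811, of which 4 stay after this thinning, with window means from 41.5% to 76.6%. Dense embryos averaged 53.0%, 59.4%, 52.0%, 61.3%, 55.8% and 29.8%, so replicate 10 was well under the others. Sparse replicates 6 to 9 stood at 62.5%, 61.0%, 64.9% and 90.5%. Replicate 9 was thus the highest embryo in this run, over 7 windows, and the lowest in the adjoining one, over 1. Distal chromosome 12 is known for the imprinted Dlk1-Meg3-Dio3 domain, with its long noncoding and small RNA genes.

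Without the 43 windows of the runs, chromosome 12 differed from the other autosomes by 0.34 points (SD 1.61, n = 10, higher in 7 of 10, adjusted permutation p = 0.765). The runs were picked for high means in these same embryos, so a smaller difference without them is built in. Over windows thinned so that no kept ones overlap, the chromosome differed by 1.14 points (8 of 10, adjusted permutation p = 0.0607). Over windows with at least 9 values it differed by 0.61 points (adjusted permutation p = 0.367). Leaving out the 5 Mb region that added most to the difference also ended the calls of chromosomes 8 (0.21 points, adjusted permutation p = 0.599), 17 (0.71 points, 0.101) and 18 (-0.64 points, 0.142). These regions too were picked from the same embryos, so a smaller difference without them is built in. The calls of chromosomes 2, 3, 5, 11 and 19 held without such a region, at -1.19, -1.33, 1.27, -1.71 and -1.68 points. Chromosome 12 also held 55 of the 395 windows at 20% or more in every embryo, 5.76% of its windows against 1.91% overall. Of these, 32 lay between 109 and 110 Mb and 6 between 113 and 114 Mb. The next densest megabases held 4 each. The 395 windows were spread over 288 different megabases, and 63 of the 395 (15.9%) had another, non-overlapping one within 50 kb.

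At a finer scale, 423 regions of 5 Mb were compared with the autosomal mean of the same embryo by limma's moderated one-sample test. Of these, 33 were higher (7.8%) and 55 lower (13%) at a Benjamini-Hochberg adjusted p under 0.05. The higher ones lay on 15 chromosomes and the lower ones on all 19. Differences ran from -8.75 to 21.0 points, and 5 regions were higher by 10 points or more while 0 were lower by as much. A level cannot fall below 0 and the autosomal mean averaged 13.2%, so a region has far less room below the mean than above.

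Over the 20700 windows, the region on chromosome 7 from 55 to 60 Mb was the highest, with 13 windows and 34.4% (21.0 points over the autosomal mean, SE 3.33, n = 9 embryos, higher in 9 of 9, limma adjusted p = 0.00147). Replicate 9 read 0% in this region, but had fewer than the 3 windows needed and did not enter. Dense embryos averaged 26.8%, 24.5%, 33.0%, 21.2%, 47.6% and 39.9% there. Among dense embryos alone, over windows with at least 5 of their 6 values, it was higher by 13.3 points, below the chromosome 12 region from 105 Mb (18.5 points). Central chromosome 7 is known for the imprinted Snrpn-Ube3a domain. The region on chromosome 12 from 105 to 110 Mb, which holds the runs, had 116 windows and 32.0% (18.8 points, SE 1.03, 10 of 10 embryos, limma adjusted p = 5.08e-08). Its embryos lay between 25% and 39.3%, and 51 of its windows were at 40% or more while 30 were under 10%. Over the 71 of its windows left after thinning overlaps, the difference was 7.74 points (SD 3.63, n = 10), still positive in 10 of 10 embryos. Over windows with at least 9 values it was 6.14 points (limma adjusted p = 0.00241).

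The region on chromosome 6 from 100 to 105 Mb had 10 windows and 27.3% (14.01 points, SE 1.65, 9 of 9 embryos, limma adjusted p = 0.000278). Its neighbour from 105 to 110 Mb was the lowest region over the 20700 windows, at 4.59% (-8.75 points, SE 1.21, lower in 9 of 9, limma adjusted p = 0.000759). The 2 adjoining regions thus lay on opposite sides of the autosomal mean in the same 9 embryos. Both differences were smaller in other window sets, at 7.46 and -6.08 points among dense embryos and at 6.99 and -5.24 points over windows with at least 5 values. They kept their calls there, but the region on chromosome 2 from 120 Mb was then lower than the one on chromosome 6, at -6.78 and -8.79 points. The region on chromosome 14 from 95 to 100 Mb was called with 27.1% (13.9 points, SE 4.03, 8 of 10 embryos, limma adjusted p = 0.0293), but sparse replicates 7, 8 and 9 lay 27.5 to 38.1 points above their means. Dense embryos differed there by 3.91 points (limma adjusted p = 0.0622). The call was also lost without replicate 7 (9.59 points, limma adjusted p = 0.132) and without replicate 9 (11.5 points, 0.056).

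The other low regions lay on chromosome 13 from 80 to 85 Mb (-8.57 points), on chromosome 2 from 120 to 125 Mb (-8.51 points) and on chromosome 2 from 15 to 20 Mb (-8.46 points). In the chromosome 13 region replicate 9 read 50%, but had fewer than the 3 windows needed and did not enter. On chromosome 2 from 120 to 125 Mb, 26 of 30 windows were under 10% and all 10 embryos lay below their autosomal mean (SE 0.93, limma adjusted p = 9.65e-05). Among dense embryos the chromosome 13 region (-2.35 points, limma adjusted p = 0.206) and the chromosome 2 region from 15 Mb (-3.57 points, limma adjusted p = 0.0988) lost their calls.

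**Figure D4:**
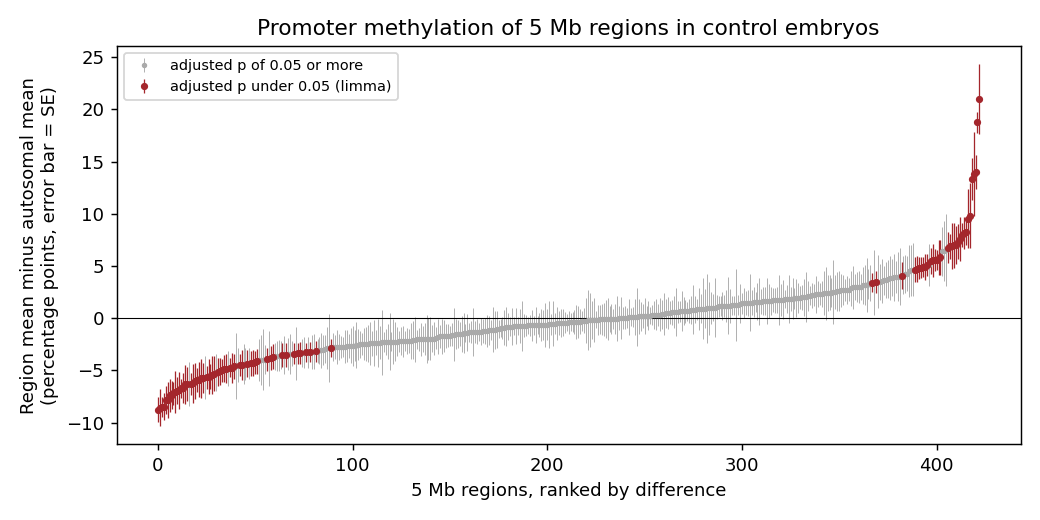
Mean promoter methylation of 423 regions of 5 Mb minus the autosomal mean of the same embryo (y axis, percentage points, mean with SE), ranked (x axis). The 88 regions with an adjusted p under 0.05 in limma are red. The tail is longer upwards (to 21.0 points) than downwards (to -8.75 points), where a level ends at 0.

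Whether a promoter window overlaps another went with its level. Windows that overlap at least 1 other window can mark genes with several start sites or genes that start close to each other. The 8442 such windows stood at 10.1% ± 2.06 (SD, n = 10) and the 12258 that overlap none at 15.4% ± 3.19. The difference of -5.36 points (SD 1.29) was negative in 10 of 10 embryos (adjusted exact sign-flip permutation p = 0.00391, over 4 comparisons of position). Overlapping windows also reached 7 embryos more often (54.2% against 34.2%). Among dense embryos with no minimum of embryos the difference was -5.92 points (6 of 6), so it was as large without that filter. Of the 579 windows that overlap 3 or more others, 38 (6.56%) were at 20% or more in every embryo, against 1.91% of the 20700. Of all 395 windows at that level, 32 lay between 109 and 110 Mb on chromosome 12, where the runs consist largely of overlapping windows. The part of that stretch in the 38 was not tested. There were 71 (12.3%) at 5% or less in every embryo, against 7.95% overall. Of all windows that overlap at least 1 other, 106 (1.26%) were at 20% or more in every embryo.

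The 1376 windows in the first 10 Mb of a chromosome's windows, next to the centromere in the mouse, stood at 14.2% ± 2.81, higher than the rest of the chromosome by 1.18 points (SD 0.68, 9 of 10 embryos, adjusted permutation p = 0.00521). Those in the last 10 Mb stood at 13.9% ± 2.79, higher by 0.86 points (SD 0.49, 10 of 10 embryos, adjusted permutation p = 0.00391). With no minimum of embryos, dense embryos were higher by 2.20 points in the first 10 Mb (6 of 6) and by 0.03 points in the last (4 of 6, adjusted permutation p = 0.719), so the second call was lost. Windows 50 kb or more from the next did not differ detectably from those within 10 kb (-0.32 points, SD 1.19, 4 of 10 higher, adjusted permutation p = 0.418). With no minimum of embryos, dense embryos were instead higher at the distant windows by 1.86 points (6 of 6, adjusted permutation p = 0.0417).

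Likeness between neighbouring promoters faded within kilobases. Pairs of neighbouring windows were taken with no minimum of embryos. In dense embryos, neighbouring windows less than 2 kb apart and not overlapping had a correlation of 0.18 within an embryo (0.14 to 0.23). At 2 to 10 kb it was 0.09, at 10 to 50 kb 0.05 and at 50 to 200 kb 0.04. A window in one embryo and its neighbour in another embryo gave nearly the same values, 0.16, 0.08, 0.05 and 0.03. The same window in 2 dense embryos gave 0.32. These are correlations across windows of the same libraries, given as descriptions.

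**Figure D5:**
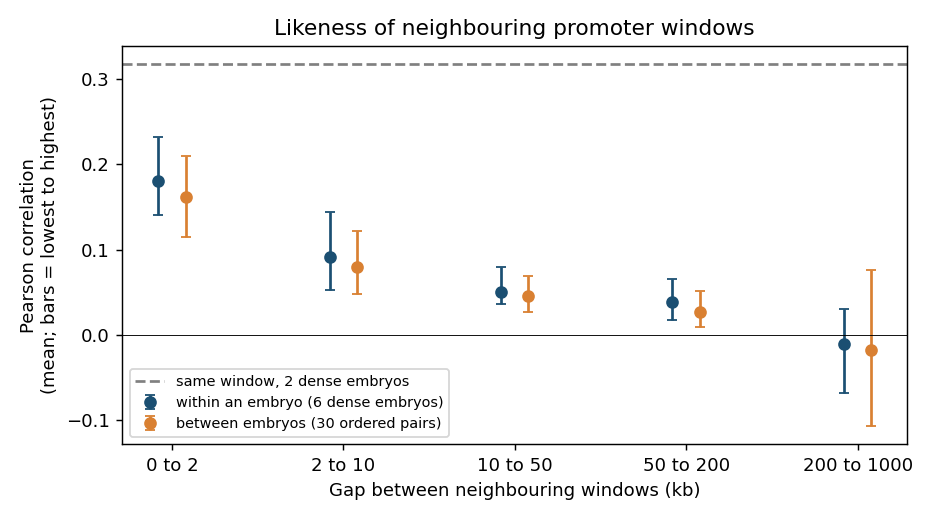
Pearson correlation of methylation between neighbouring, non-overlapping promoter windows (y axis) by the gap between them (x axis, kb), within dense embryos (blue) and between them (orange), with bars from the lowest to the highest. Both start at 0.18 and 0.16 under 2 kb and lie near 0 from 50 kb on; the dashed line is the same window in 2 dense embryos, 0.32.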

How the data were processed

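The authors deposited a single table that gives the percent methylation of each promoter window in each embryo. Trimming used Trim Galore 0.4.4, and alignment and calling used Bismark 0.18.2 on GRCm39, per the submitters' processing notes. The sources used here give neither a coverage minimum nor the way calls were combined. Of 54080 rows, 46 repeated another and were dropped, and the 10 columns of mutant embryos were not used. Of 295292 values, 1056 (0.358%) were whole numbers over 100 and were divided by 1000, since they read as percents without their decimal point (none then exceeded 90.6). Windows needed a value in at least 7 embryos, or 70% of a subset, except where another set is named. Sign-flip tests were run in Python 3.11.15 with numpy 2.4.6, and limma 3.58.1 in R 4.3.3 on percentage points, with default eBayes, for regions of at least 10 windows, an embryo entering with at least 3. The procedure was tested on simulated data. P-values rest on the spread between embryos. Windows named are, by rule: those at 50% or more in every embryo, the 5 most covered at 0, the 5 most variable, the runs, and the extreme chromosomes and regions. Members, lists and rules were chosen with earlier results of these data known. The gene lists could not be joined to windows and were not analysed here.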

Additional observations from a re-analysis of the deposited data

Results flagged for a closer look

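Of 50 groups of values checked with Dixon's criterion at the 95% level, 4 held an embryo far from the others, where chance gives about 1 in 20. Replicate 7, a sparse embryo, had the highest plain mean of all its windows, 21.1%, with the next embryo at 16.6%. It was also far above the others at windows placed at 5% to 20% by the other 9 embryos, with 19.2% against 13.97% in the next. Replicate 6, also sparse, read 100% in the window on chromosome 12 from 109543667 to 109547166, where the next embryo read 71.4%. Replicate 9, the least covered embryo, read 0% in the first run on chromosome 12, where it had 1 window and the next embryo stood at 45.2%. All 4 values come from sparse embryos, and the part of coverage in them was not tested.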

How the results depend on the processing

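No paired analysis was possible because the report holds 1 group, with no second one to pair with. The position comparisons, and chromosomes without a run or region, were chosen after seeing the data. Dense embryos alone needed 5 of 6 values. Read depth, which is unknown, limits every level.

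The mean level kept within its SD except without values of exactly 0 and 100 (31.2% over 1860 windows, where the zeros are removed by construction). Windows at 50% or more in every embryo, 10 in the report, were 76 in dense embryos, 86 with at least 5 embryos and 1 with at least 9, and 31 and 0 with limits of 40% and 60%. They ranged from 5 to 11 without single embryos, over different numbers of windows tested. The 5 were of 10608 windows (0.0471%) without replicate 1, of 9811 (0.051%) without replicate 5 and of 17159 (0.0291%) without replicate 7. Windows at 5% or less, 1646 in the report, were 3456 in dense embryos, 2982 with at least 5 embryos, 195 with at least 9, 366 at a limit of 2% and 4367 at a limit of 10%, and 880 to 1596 without single embryos (under 1100 without a dense one). As a share of windows tested, the methylated ones were 0.0483% in the report, 0.214% in dense embryos and 0.222% with at least 5 embryos. The cause was not tested. The share at 5% or less was 7.95% in the report, 9.74% in dense embryos, 7.70% with at least 5 embryos and 7.31% with at least 9. Without a dense embryo it was 9.13% to 9.96%, of only 9634 to 10608 windows tested. Without a sparse embryo it was 8.18% to 8.67%.

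Chromosomes past the threshold, 9 in the report, were 0 in dense embryos (11 at an unadjusted p under 0.05), 5 by the share of windows at 50% or more and 8 to 11 without single embryos. Regions, 88 in the report, were 49 at 10 Mb, 45 with at least 5 embryos, 25 of 84 with at least 9, and 17 of 56 without values of exactly 0 and 100. They were 46 to 94 without single embryos (56 without replicate 7, and 46 to 52 without replicate 2, 3, 4, 5 or 10, where fewer regions were left to test). With at least 5 embryos, 24 were higher and 21 lower, and in dense embryos 62 and 63, against 33 and 55. The chromosome 13 region differed by -0.78 points with at least 5 embryos. The mean correlation between embryos was 0.33 in dense embryos and 0.23 by Spearman. Placed by the median of the other embryos, the lowest 2 classes stood at 8.19% and 15.5%.

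With a value in all 6 dense embryos, the differences by overlap (-5.36), first 10 Mb (1.63) and last 10 Mb (0.49) had adjusted permutation p-values of 0.0625 to 0.0833. The last 10 Mb differed by 0.029 with no minimum. The difference by distance to the next window, -0.32 in the report, changed sign in dense embryos (0.20), with no minimum (1.86) and with all 6 dense values (0.54). It also changed sign without chromosome 12 (0.012) and over windows thinned so that no kept ones overlap (0.36).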
